A study of Rattus norvegicus with 6 samples.

Results

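The genes described here encode translation initiation factors of rat brain, other than 9 genes set aside. The genes set aside are mostly factors of start codon selection, with the kinase gene Eif2ak2 among them, while Eif1a, a gene of the eIF1A type, remained. The members are the genes whose symbol begins with Eif, without Eif5, Eif5b, Eif1, Eif1b, Eif1ax, Eif2s1, Eif2s2, Eif2s3y and Eif2ak2. Of the 52 genes beginning with Eif, 43 remained, out of 32623 genes in all, and all 43 passed the filter on low counts. Poly(A) RNA of Rattus norvegicus brain was sequenced in 6 libraries. In 3 of them the genotype label was pcDNA3.1, an expression plasmid (vector), and in the other 3 it was pcDNA3.1/LINC00894, the plasmid with a human long non-coding RNA (LINC00894). The study concerns cerebral ischemia and reperfusion and the factors EIF5 and ATF4. The labels of these libraries do not give ischemia, plasmid delivery, strain, age, sex or brain region.

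Most messenger RNAs begin translation when eIF2 carries the initiator methionyl-tRNA to the small ribosomal subunit, which is bound by eIF3, while eIF4F recruits the messenger RNA through its cap. eIF2 is a GTPase that eIF2B recharges with GTP. When stress activates an eIF2 kinase, phosphorylated eIF2 blocks eIF2B, general initiation slows, and messenger RNAs such as that of ATF4 are translated more. Initiation at the cap is held back separately by eIF4E binding proteins, which the kinase complex mTORC1 inactivates.

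Summed counts per library ran from 12843875 to 16268464. Levels are given as TMM-scaled FPKM, that is counts divided by exonic length and by the library's total after TMM scaling. Counts of the Y-linked genes Kdm5d and Eif2s3y came to 0 in LINC00894 replicates 1 and 2, whereas LINC00894 replicate 3 had 1885 and the vector libraries 1498 to 2071. Markers of neurons were detected in every library, with a summed level of 2079 to 2267 in vector and 1497 to 2213 in LINC00894. Separate animals are not stated in the labels, so each p-value rests on the spread between libraries. LINC00894 replicate 3 differed from the other LINC00894 libraries in Y-linked counts, so these are not all repeats of a single RNA sample. Among the vector libraries, and between LINC00894 replicates 1 and 2, the spread may be a technical one. Libraries without Y-linked counts occurred in LINC00894 only, so the presence of such counts is partly confounded with the group. In tissue RNA, fewer cells of a type and less RNA per cell cannot be told apart.

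Most of the 43 genes had small positive differences in LINC00894, and none passed the test. By edgeR's quasi-likelihood test with Benjamini-Hochberg adjustment over the 15121 genes tested, 0 members had an adjusted p under 0.05 (smallest 0.981), against 0.0% of all genes, and DESeq2 also called 0 members, against 0.0727%. At an unadjusted p under 0.05 there was 1 member higher, the X-linked Eif2s3, and 0 lower, against 1.82% of all genes higher, 2.22% lower and 4.03% in either direction. Fold changes, here always LINC00894 over vector on the log2 scale, were positive in 34 of 43 members, against 51.8% of all genes, with a median of 0.17 over the members and 0.01 over all genes. With libraries scaled by their totals alone, they were positive in 40 of 43 members and 62.6% of all genes, with DESeq2 in 32 and 49.0%, and the medians with library totals were 0.23 and 0.08. The members' median was 0.05 without LINC00894 replicate 1 and 0.06 without vector replicate 3. For 42 of 43 members the 95% interval of the log2 fold change included 0. Its upper bound lay below 1, a doubling, in 41 members, and its lower bound above -1 in 43.

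**Figure D1:**
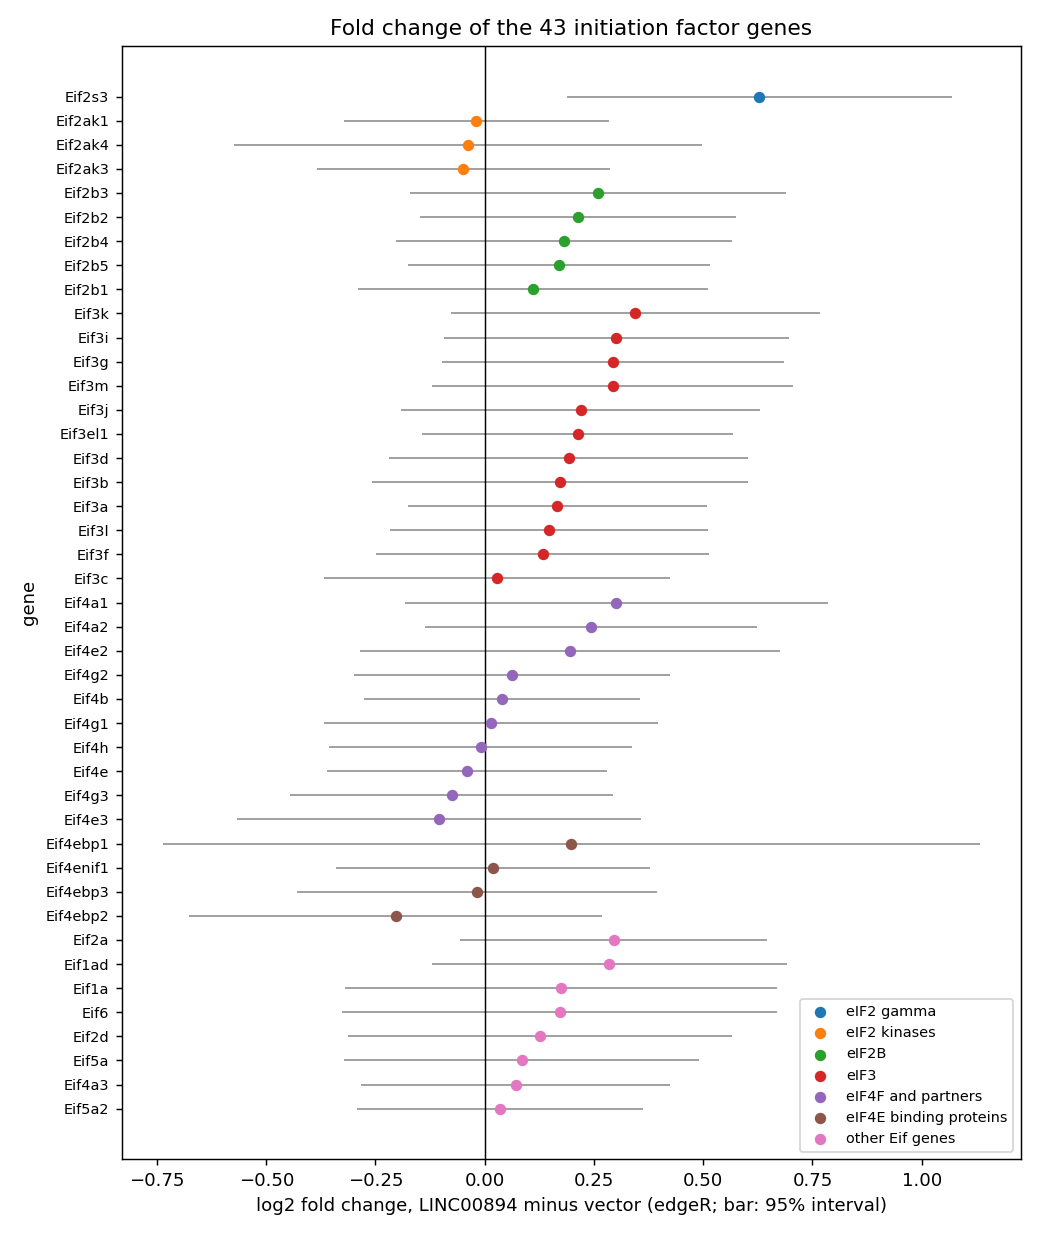
Log2 fold change of LINC00894 over vector (x axis, edgeR) for each of the 43 genes (y axis), coloured by complex, with 95% intervals as bars. The interval of Eif2s3, at 0.63, is the one that excludes 0, and the 3 eIF2 kinase genes shown lie close to 0.

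Levels spanned a wide range. Eif4a2, a form of the helicase eIF4A that is abundant in brain, had the highest mean over the 6 libraries, 309.8 TMM-scaled FPKM, followed by Eif5a at 242 and Eif4g2 at 167. The lowest was the kinase gene Eif2ak4, at 3.83. The 5 eIF2B genes lay between 9.57 and 19.4, below the eIF3 genes, which lay between 22.9 and 82.3. The median coefficient of variation between libraries was 9.82% in vector and 14.9% in LINC00894.

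Eif2s3, on the X chromosome, encodes the gamma subunit of eIF2, which binds GTP and the initiator tRNA. Its levels were 33.0, 30.7 and 29.7 TMM-scaled FPKM in vector replicates 1, 2 and 3 and 59.1, 50.2 and 35.0 in LINC00894 replicates 1, 2 and 3. All LINC00894 libraries lay above all vector libraries, and LINC00894 replicates 1 and 2 stood well above replicate 3. The log2 fold change was 0.63 (SE 0.20), 95% interval 0.19 to 1.07, with an unadjusted p of 0.0101 and an adjusted p of 0.981 by edgeR. Eif2s3y, the Y-linked copy for the same subunit, stood at 33.9, 33.7 and 32.9 in vector and 0, 0 and 44.8 in LINC00894. The libraries with the highest Eif2s3 were those without Y-linked counts. Among the 4 libraries with Y-linked counts above 1000, the log2 fold change of Eif2s3 was 0.16 (unadjusted p = 0.388 by edgeR), and with such counts as a covariate it was 0.17 (unadjusted p = 0.404 by edgeR). Both values rest on LINC00894 replicate 3, the only LINC00894 library with such counts, which was assumed to vary like the others. Both copies summed stood at 66.8, 64.4 and 62.6 in vector and 59.1, 50.2 and 79.7 in LINC00894. On this sum the groups overlapped, and LINC00894 replicates 1 and 2 lay below all vector libraries.

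**Figure D2:**
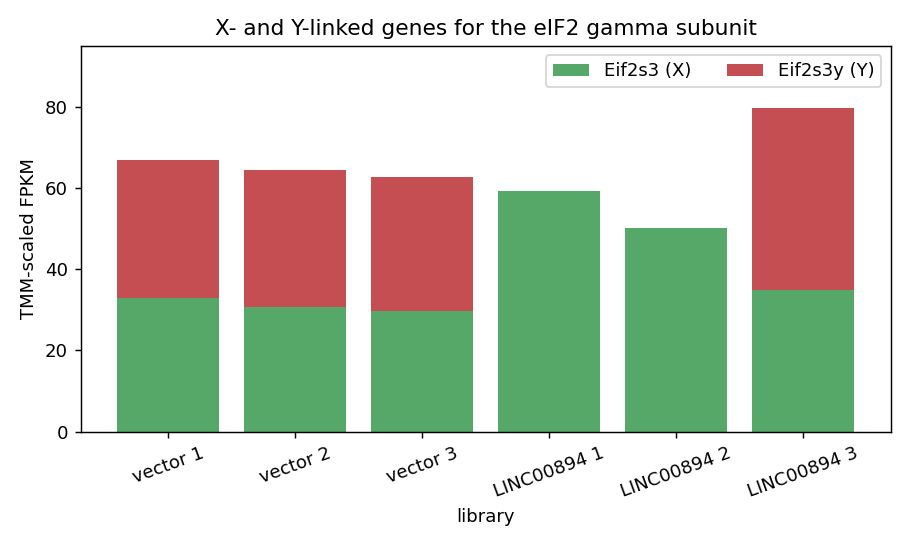
TMM-scaled FPKM (y axis) of the X-linked Eif2s3 and the Y-linked Eif2s3y, as stacked bars, in each of the 6 libraries (x axis). Eif2s3y is at 0 in LINC00894 replicates 1 and 2, where Eif2s3 is highest, at 59.1 and 50.2.

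The 5 different subunits of eIF2B exchange GDP for GTP on eIF2, and mutations in the human genes cause a white matter disease of the brain. All 5 genes had a positive log2 fold change, from 0.11 for Eif2b1 to 0.26 for Eif2b3, with a median of 0.18 and a smallest unadjusted p of 0.208 by edgeR. They were positive in every alternative setting run, with medians from 0.14 to 0.25, against 48.6% to 62.6% of all genes positive. These settings reuse the same libraries. The median deviation of the 5 genes from their own means was -0.15, 0.08 and -0.16 log2 units in vector replicates 1, 2 and 3. It was 0.21, 0.01 and 0.06 in LINC00894 replicates 1, 2 and 3, so vector replicate 2 lay above LINC00894 replicates 2 and 3. Eif2b2, for the beta subunit, stood at 12.8, 13.1 and 11.6 TMM-scaled FPKM in vector replicates 1, 2 and 3 and 15.0, 13.2 and 15.3 in LINC00894 replicates 1, 2 and 3. The groups did not overlap, with vector replicate 2 and LINC00894 replicate 2 nearly equal, and the log2 fold change was 0.21 (SE 0.16). Groups without overlap and LINC00894 higher were found for 4 of 43 members (Eif2s3, Eif2b2, Eif3i and Eif2a) and 4.98% of all genes, and with LINC00894 lower for 0 members and 3.9% of all genes. For these 4 the two-sided exact permutation p was 0.1, the smallest that 3 against 3 libraries allow. Eif2b3, for the gamma subunit that acts with the catalytic subunit, was the lowest of the complex, at 7.61, 10.0 and 8.49 in vector and 11.7, 9.71 and 9.86 in LINC00894. Eif2b4, for the delta subunit, was the highest, at 17.3, 20.8 and 16.3 in vector and 20.5, 19.4 and 21.9 in LINC00894. The groups overlapped for both genes. Eif2b5, for the catalytic epsilon subunit, differed by 0.17 (SE 0.15) on the log2 scale, and its groups were separate with scaling by library totals, where 5 members were separate and higher, against 7.86% of all genes, and 0 lower, against 2.34%. Eif2b1, for the alpha subunit, lies opposite Ddx55 over 12394 bases and opposite Gtf2h3 over 211 bases of gene span. Overlap of exons was not computed. With no statement on whether counting used strand, reads in any shared exon bases cannot be told apart.

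The 3 eIF2 kinase genes among the members had log2 fold changes close to 0. The other eIF2 kinase gene, Eif2ak2 (PKR, which senses double-stranded RNA), was left out by the selection and stood at 8.70, 9.73 and 9.09 in vector and 12.7, 9.77 and 12.3 in LINC00894, without overlap and with LINC00894 replicate 2 close to vector replicate 2. Its log2 fold change was 0.34 (SE 0.17), with an unadjusted p of 0.0695 and an adjusted p of 0.981 by edgeR. Eif2ak1 (HRI, a kinase controlled by heme) stood at 29.1, 28.4 and 27.4 TMM-scaled FPKM in vector replicates 1, 2 and 3 and 27.0, 28.5 and 28.3 in LINC00894 replicates 1, 2 and 3. Both groups covered nearly the same narrow range, with a log2 fold change of -0.02 (SE 0.14), 95% interval -0.32 to 0.28. Eif2ak3 (PERK, which senses unfolded protein in the endoplasmic reticulum) had a log2 fold change of -0.05 (SE 0.15), 95% interval -0.38 to 0.29. Eif2ak4 (GCN2, which senses uncharged tRNA) stood at 2.93, 3.69 and 5.04 in vector and 4.26, 4.17 and 2.92 in LINC00894. High and low libraries occurred in both groups (-0.04, 95% interval -0.57 to 0.50), and this gene lies opposite Srp14 over 3282 bases. With scaling by library totals the 3 values were 0.05, 0.02 and 0.03. These values concern messenger RNA, and the intervals allow changes of either sign.

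eIF3 is a large scaffold on the small ribosomal subunit, and 12 of its subunit genes were members. Eif3e and Eif3h are not analysed here under those symbols. LOC108348062, described as subunit H and not a member by its symbol, had a log2 fold change of 0.26 (SE 0.19). All 12 member genes had a positive log2 fold change, with a median of 0.20 and a range from 0.03 (Eif3c) to 0.34 (Eif3k). Their smallest unadjusted p was 0.0979 by edgeR. By library, the median deviation of the 12 genes from their own means was -0.13, 0.04 and -0.20 log2 units in vector replicates 1, 2 and 3 and 0.25, -0.15 and 0.24 in LINC00894 replicates 1, 2 and 3. LINC00894 replicates 1 and 3 were high, and LINC00894 replicate 2 lay below vector replicates 1 and 2. The number of the 12 genes above their mean was 12, 1 and 11 in LINC00894 replicates 1, 2 and 3, and 1, 9 and 0 in vector replicates 1, 2 and 3. The highest library was LINC00894 replicate 1 for 6 genes and replicate 3 for the other 6. Without LINC00894 replicate 1 the median was 0.14, with 10 of 12 positive, and without LINC00894 replicate 2 it was 0.31, with 12 of 12 positive. In the 4 libraries with Y-linked counts, where LINC00894 replicate 3 stood alone against vector, it was 0.34, with 11 of 12 positive, against 49.1% of all genes.

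**Figure D3:**
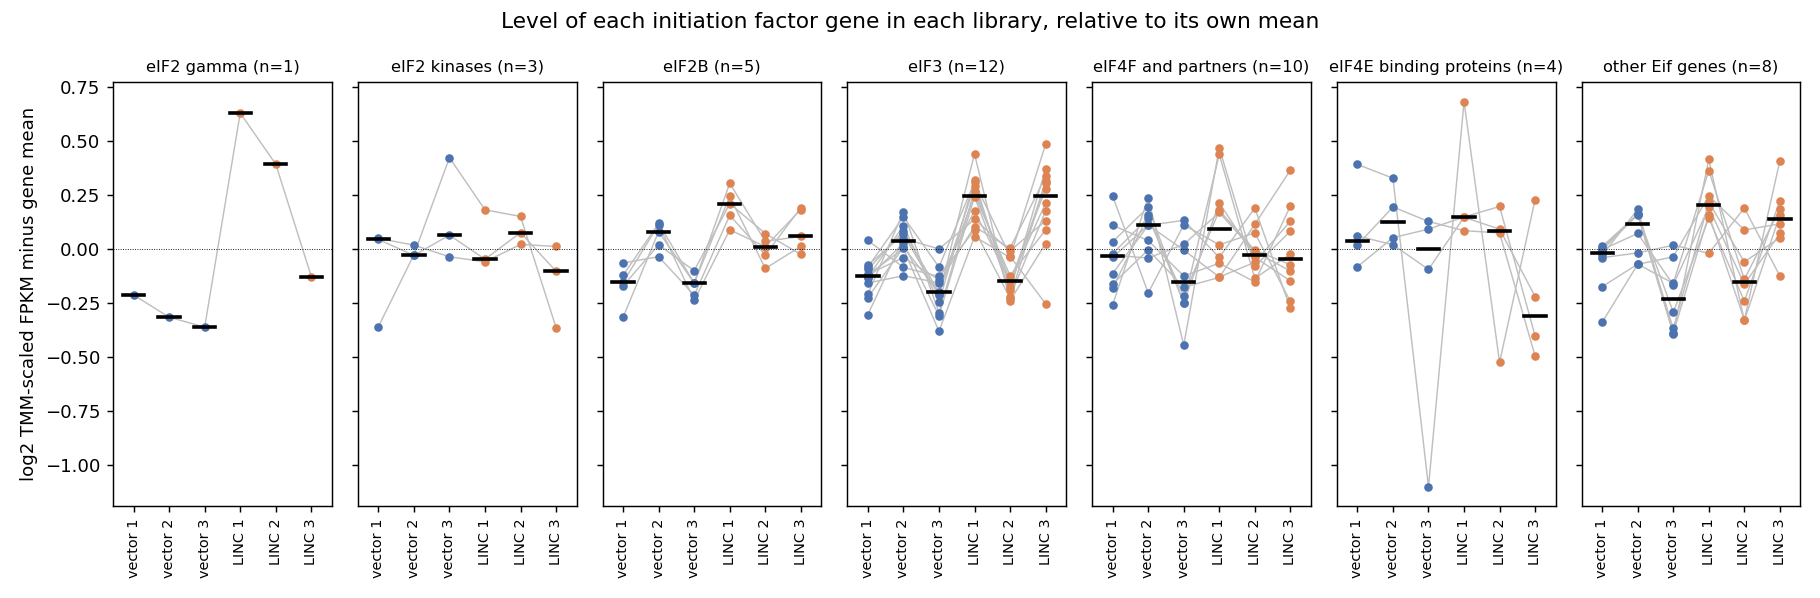
Deviation of each gene's log2 level from its own mean over the 6 libraries (y axis), by library (x axis, LINC for LINC00894) and complex (panels), with points for genes, grey lines joining a gene's values and black bars for medians. For eIF3, LINC00894 replicates 1 and 3 are high, with medians of 0.25 and 0.24, and LINC00894 replicate 2 is low, at -0.15.

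Eif3k, a small peripheral subunit, stood at 57.1, 62.2 and 47.6 TMM-scaled FPKM in vector replicates 1, 2 and 3 and 64.6, 60.4 and 86.9 in LINC00894 replicates 1, 2 and 3. LINC00894 replicate 3 was the high library, and replicate 2 lay within the vector range, and the log2 fold change was 0.34 (SE 0.19). Eif3i, a WD40 subunit that binds Eif3b, was the lowest of eIF3, at 20.4, 20.9 and 20.4 in vector and 24.4, 22.8 and 28.7 in LINC00894. Its groups did not overlap, the vector libraries were nearly equal, and the log2 fold change of 0.30 (SE 0.18) was 0.18 without LINC00894 replicate 3. A pseudogene copy of Eif3i was counted apart, so the split of reads is uncertain, and both summed stood at 34.1, 34.8 and 36.0 CPM (counts scaled to library size) in vector and 42.5, 36.4 and 45.6 in LINC00894. Eif3f, the highest of eIF3, stood at 84.0, 77.0 and 74.8 in vector and 86.9, 69.7 and 102 in LINC00894. Here LINC00894 held both the lowest and the highest library, and the log2 fold change was 0.13 (SE 0.17). The RNA-binding subunit gene Eif3g had a value of 0.29 (SE 0.17), Eif3m one of 0.29 (SE 0.18) and Eif3j, a loosely bound subunit, one of 0.22 (SE 0.18). Eif3el1, described in the gene table as subunit E-like, had one of 0.21 (SE 0.16), and the cap-binding subunit gene Eif3d one of 0.19 (SE 0.18). The core subunit genes Eif3a and Eif3b had values of 0.17 (SE 0.15) and 0.17 (SE 0.19), and Eif3l one of 0.15 (SE 0.16). For Eif3c, another core subunit, the value was 0.03 (SE 0.18), and -0.26 for LINC00894 replicate 3 alone against vector.

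Gene length moved with these values. Slopes on log2 exonic length were fitted to log2 CPM centred gene by gene across the 6 libraries, so they only compare libraries. Over all genes tested, this relative slope was 0.0617 per doubling in vector replicate 3 and -0.100 in LINC00894 replicate 3. In the other 4 libraries it lay between -0.000465 and 0.0171. The eIF3 genes had a median exonic length of 1382.5 bases and the kinase genes one of 4491. Over the 43 members, which share the 6 libraries, Spearman's rho between exonic length and log2 fold change was -0.54, against -0.26 over the 15121 genes. The 22 members of at most 2416 bases had a median log2 fold change of 0.21, with 21 positive, and the 21 longer members one of 0.03, with 13 positive. With each library's length trend removed, the eIF3 median was 0.17, with 12 of 12 positive, and the median was 0.11, with 36 of 43 positive, for all members, against 49.7% of all genes positive. The summed level of the 4 endothelial markers tested, of 6 listed with Cldn5 at 0 in every library, was 32.8 to 43.5 in vector and 40.4 to 63.8 in LINC00894, with LINC00894 replicate 1 the high library and the other LINC00894 libraries within the vector range. None of the 4 passed an unadjusted p of 0.05 (smallest 0.107 by edgeR). Positive log2 fold changes were found for 1 of 7 neuronal, 2 of 6 astrocyte and 1 of 6 oligodendrocyte markers, and for 5 of 6 microglial and 4 of 6 blood and leukocyte markers. The microglial marker Aif1, at 0.85 (unadjusted p = 0.00606 by edgeR), and the leukocyte marker Ptprc, at 0.76 (unadjusted p = 0.0305 by edgeR), were higher without overlap of groups. Both had an edgeR adjusted p of 0.981. At an unadjusted p under 0.05, 0 of these markers were lower, against 1.82% of all genes higher and 2.22% lower. The summed neuronal level was lowest in LINC00894 replicate 1, at 1497, against 1913 to 2267 in the others. That of oligodendrocyte markers was highest in vector replicate 3, at 3418, against 1495 to 2477. The blood and leukocyte sum was lowest in vector replicate 2, at 31.9, against 56.5 to 229. Leaving out LINC00894 replicate 1 or vector replicate 3 lowered the members' median most, to 0.05 and 0.06. The part of these cell types in the initiation factor values was not tested.

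**Figure D4:**
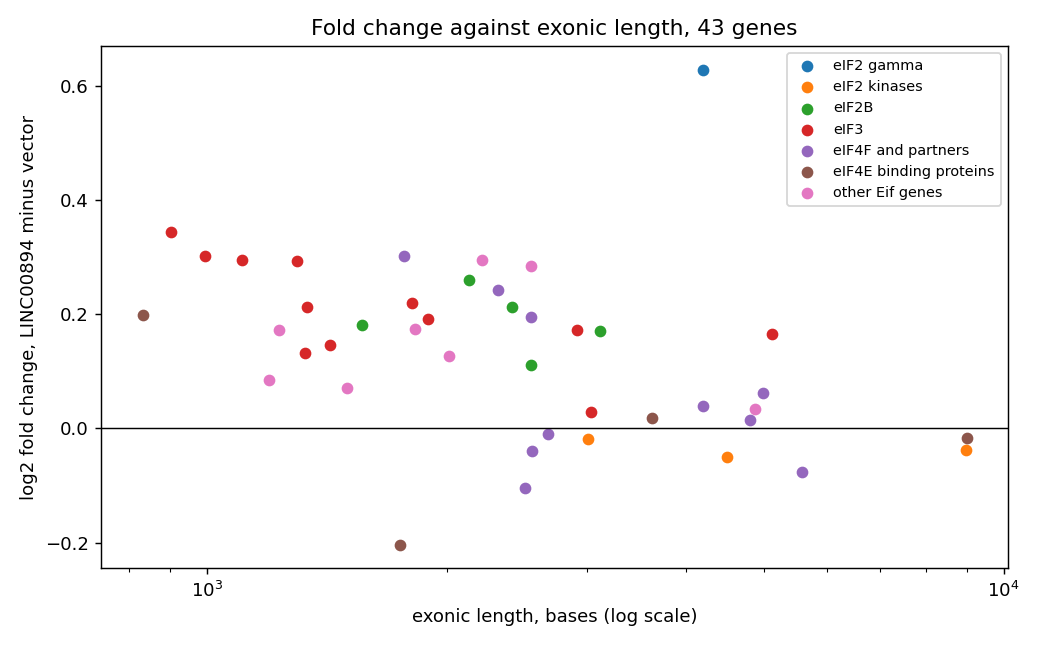
Log2 fold change of LINC00894 over vector (y axis) against exonic length in bases (x axis, log scale) for the 43 genes, coloured by complex. The 22 genes of at most 2416 bases have a median of 0.21 and the longer ones a median of 0.03.

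eIF4F binds the cap and unwinds the messenger RNA leader, and 6 of 10 genes of the complex and its partners had a positive log2 fold change, with a median of 0.03. The median was -0.05, with 4 of 10 positive, without vector replicate 3 and -0.01, with 4 of 10 positive, without LINC00894 replicate 1. It was 0.07, with 8 of 10 positive, without vector replicate 2 and 0.07, with 7 of 10 positive, without LINC00894 replicate 3. The helicase gene Eif4a2 stood at 274, 306 and 271 TMM-scaled FPKM in vector replicates 1, 2 and 3 and 280.0, 332 and 395 in LINC00894 replicates 1, 2 and 3. The groups overlapped, with LINC00894 replicate 3 highest, and the log2 fold change was 0.24 (SE 0.17). Its paralog Eif4a1 stood at 132, 187 and 116 in vector and 219, 149.6 and 167 in LINC00894, with LINC00894 replicate 1 highest, and the log2 fold change was 0.30 (SE 0.22). Eif4a1 made up 33.5% of the level of the pair in vector and 34.9% in LINC00894 on average (n = 3 each, two-sided exact permutation p = 0.9). Eif4e3, an atypical cap-binding homolog, was the lowest of these genes, at 7.50, 5.49 and 6.84 in vector and 6.41, 6.66 and 5.35 in LINC00894. Its groups overlapped, as did those of all 10 genes, and the log2 fold change was -0.11 (SE 0.21). The cap-binding protein gene Eif4e had a value of -0.04 (SE 0.14), and Eif4e2, a cap-binding repressor, one of 0.20 (SE 0.21). The scaffold genes Eif4g1 and Eif4g3 had values of 0.01 (SE 0.17) and -0.08 (SE 0.16), and Eif4g2, a scaffold that lacks the eIF4E site, one of 0.06 (SE 0.16). Eif4b and Eif4h, which stimulate the helicase, had values of 0.04 (SE 0.14) and -0.01 (SE 0.15). Each of Eif4e, Eif4g1, Eif4g2, Eif4g3, Eif4b, Eif4h and Eif4e2 took the other sign in at least 1 alternative setting.

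The eIF4E binding proteins compete with eIF4G for eIF4E, and 2 of 4 genes of this group were positive, with a median of 0.00. The median was -0.11, with 0 of 4 positive, without vector replicate 3 and -0.11, with 0 of 4 positive, without LINC00894 replicate 1. It was -0.10, with 1 of 4 positive, without LINC00894 replicate 2 and 0.12, with 3 of 4 positive, without LINC00894 replicate 3. Eif4ebp1, a known target of ATF4, stood at 15.3, 14.7 and 5.44 TMM-scaled FPKM in vector replicates 1, 2 and 3 and 18.8, 8.11 and 13.7 in LINC00894 replicates 1, 2 and 3. Low libraries occurred in both groups, and the log2 fold change of 0.20 (SE 0.42), 95% interval -0.74 to 1.13, was -0.17 without vector replicate 3. Eif4ebp2, a form abundant in brain, stood between 11.1 and 12.5 in vector, while the LINC00894 libraries had 11.6, 11.5 and 7.76. LINC00894 replicate 3 was low, and the log2 fold change of -0.20 (SE 0.21) was -0.06 without it. In the libraries with Y-linked counts, where that replicate stood alone for LINC00894 and was assumed to vary like the vector libraries, Eif4ebp2 was lower and Eif3k, Eif3m and Eif4a2 were higher at an unadjusted edgeR p under 0.05. Of all genes, 6.64% were lower and 3.02% higher at that p in these libraries, 9.66% in all, so 4 of 43 members is close to the background. Eif4enif1, a carrier of eIF4E into the nucleus, was the highest of these genes, at 13.9, 13.5 and 12.5 in vector and 14.8, 14.2 and 11.4 in LINC00894, and overlapped between groups, with a log2 fold change of 0.02 (SE 0.16). The entry Eif4ebp3 was the lowest, at 9.78, 10.7 and 11.0 in vector and 11.5, 11.9 and 7.83 in LINC00894, with a log2 fold change of -0.02 (SE 0.18), and its exonic length of 8986 bases with 2 KEGG orthology entries leaves uncertain whether it holds that gene alone.

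The other 8 genes all had a positive log2 fold change, with a median of 0.15. The median was 0.01, with 5 of 8 positive, without vector replicate 3 and 0.05, with 6 of 8 positive, without LINC00894 replicate 1. Without LINC00894 replicate 3 it was 0.10, with 6 of 8 positive, and without vector replicate 2 or LINC00894 replicate 2 it was 0.27, with 8 of 8 positive, and 0.25, with 7 of 8 positive. Eif2a, which can bring initiator tRNA to the ribosome without eIF2, stood at 16.3, 19.6 and 20.1 TMM-scaled FPKM in vector replicates 1, 2 and 3 and 24.4, 21.9 and 22.3 in LINC00894 replicates 1, 2 and 3. Its groups did not overlap, and the log2 fold change was 0.29 (SE 0.16), 95% interval -0.06 to 0.65, with an unadjusted p of 0.0904 by edgeR. It lies opposite Serp1 over 33 bases. Eif5a, which carries hypusine and also acts in elongation, was the highest of these, at 241, 268 and 195 in vector and 264, 202 and 279.7 in LINC00894. Vector replicate 3 and LINC00894 replicate 2 were its low libraries. The lowest was Eif1ad, at 10.6, 11.4 and 10.7 in vector and 15.4, 10.9 and 13.7 in LINC00894, with a log2 fold change of 0.29 (SE 0.18). Eif6, which keeps the large ribosomal subunit from joining early, had a value of 0.17 (SE 0.22), and Eif1a one of 0.17 (SE 0.22). Eif2d, which acts in reinitiation, had one of 0.13 (SE 0.20), Eif4a3, a helicase of the exon junction complex, one of 0.07 (SE 0.16), and Eif5a2, a paralog of Eif5a, one of 0.03 (SE 0.15).

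Promoter windows from 250 bases before to 50 after the annotated start, from RefSeq on GRCr8, were matched by symbol to 39 of the 43 genes, 3 of them with several windows. Eif3el1, Eif4b, Eif4e3 and Eif4ebp1 were not matched. The windows were searched on both strands for 8 motifs, and the ETS motif was picked out after all 8 counts were seen. CCGGAAG, an extended form of the core that ETS factors bind, was searched as the ETS motif, and shorter forms were not counted. The motif was in 16 of 39 genes and 42.9% of their 42 windows. Of all 33469 windows 8.74% held it, and of the 12354 windows of genes tested 15.0%. It was found in 5 of 11 eIF3 genes, 2 of 5 eIF2B genes, 1 of 3 kinase genes, 1 of 8 genes of eIF4F and partners, 1 of 3 binding protein genes and 6 of 8 other genes. TGATGNAA, part of the element that ATF4 binds with C/EBP proteins, was found in 1 gene, Eif3g. It was in 2.38% of member windows and 2.04% of windows of genes tested. In the same terms, the NRF1 motif was found in 6 genes, with 14.29% and 8.56%, and the E-box CACGTG in 8 genes, with 19.05% and 8.67%. ATGGCG, the core of the YY1 motif, was found in 6 genes, with 14.29% and 15.6%, and CCAAT in 14 genes, with 33.3% and 36.3%. A longer YY1 motif was found in 0 genes, with 0.0% and 1.62%, and the cAMP response element TGACGTCA in 0 genes, with 0.0% and 2.89%. A match describes letters in a window and is not a binding site. The genes whose groups did not overlap are shown with Eif3k and Eif3m, each 5′ to 3′ on the strand of the gene, with the ETS motif in capitals.
Eif2s3, chrX:62933650-62933949, minus strand: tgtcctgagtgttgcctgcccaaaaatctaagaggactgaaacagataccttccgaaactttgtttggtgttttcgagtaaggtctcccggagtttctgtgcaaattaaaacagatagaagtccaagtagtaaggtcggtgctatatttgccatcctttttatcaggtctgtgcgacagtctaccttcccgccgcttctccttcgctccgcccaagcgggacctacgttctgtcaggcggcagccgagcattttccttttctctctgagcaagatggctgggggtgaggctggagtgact
Eif2b2, chr6:110597729-110598028, plus strand: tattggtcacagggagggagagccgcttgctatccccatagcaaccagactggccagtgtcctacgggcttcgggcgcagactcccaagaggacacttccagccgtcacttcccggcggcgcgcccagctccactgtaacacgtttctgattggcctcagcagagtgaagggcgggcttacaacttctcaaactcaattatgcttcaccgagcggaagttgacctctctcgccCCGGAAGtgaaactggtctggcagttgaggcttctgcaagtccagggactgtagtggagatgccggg
Eif2a, chr2:144911110-144911409, plus strand: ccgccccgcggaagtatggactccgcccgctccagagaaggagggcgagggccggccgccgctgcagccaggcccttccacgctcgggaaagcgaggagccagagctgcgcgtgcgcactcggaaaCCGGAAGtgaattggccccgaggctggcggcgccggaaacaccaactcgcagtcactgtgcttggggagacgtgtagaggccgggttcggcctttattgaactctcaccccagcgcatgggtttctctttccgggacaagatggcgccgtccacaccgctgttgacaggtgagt
Eif3i, chr5:147226861-147227160, minus strand: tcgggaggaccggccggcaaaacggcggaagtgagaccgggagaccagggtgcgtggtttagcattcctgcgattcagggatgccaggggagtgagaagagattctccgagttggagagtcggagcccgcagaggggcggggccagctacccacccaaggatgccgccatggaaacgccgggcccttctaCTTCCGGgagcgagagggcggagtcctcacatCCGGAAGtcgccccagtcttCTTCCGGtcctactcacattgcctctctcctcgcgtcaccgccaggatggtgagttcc
Eif3k, chr1:93397438-93397737, minus strand: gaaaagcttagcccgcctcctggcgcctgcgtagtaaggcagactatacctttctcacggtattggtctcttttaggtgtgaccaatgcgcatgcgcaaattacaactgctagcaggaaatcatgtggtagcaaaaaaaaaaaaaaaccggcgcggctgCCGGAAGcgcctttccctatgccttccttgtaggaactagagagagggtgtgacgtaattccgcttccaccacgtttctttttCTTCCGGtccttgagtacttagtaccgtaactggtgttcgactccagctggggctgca
Eif3m, chr3:111897144-111897443, minus strand: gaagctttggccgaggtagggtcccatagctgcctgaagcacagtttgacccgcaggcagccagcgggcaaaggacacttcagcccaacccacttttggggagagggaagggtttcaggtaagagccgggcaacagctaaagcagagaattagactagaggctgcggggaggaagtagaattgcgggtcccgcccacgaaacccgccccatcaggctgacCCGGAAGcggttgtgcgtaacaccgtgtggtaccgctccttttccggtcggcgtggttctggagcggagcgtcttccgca
Eif3i held 3 matches, beginning 60, 28 and 8 bases before the annotated start, and Eif3k held 2, at 91 and 8 bases. Eif2b2, Eif3m and Eif2a held 1 each, at 17, 30 and 124 bases, and Eif2s3 held 0 matches of the full motif.

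Related genes were followed by lists, in which edgeR gave 0 genes an adjusted p under 0.05. Of the initiation factors with other names, 11 of 15 were positive, with a median of 0.10. The smallest p values belonged to Mcts1 at 0.35 (SE 0.20) and its partner in recycling Denr at 0.21 (SE 0.18), to Ctif at -0.24 (SE 0.17) and to Paip1 at 0.20 (SE 0.15). Of the genes of mTORC1 and the eIF4E kinases, 5 of 18 were positive, with a median of -0.10. Their median deviation from their own means was -0.01, 0.01 and 0.21 log2 units in vector replicates 1, 2 and 3. It was 0.02, 0.02 and -0.25 in LINC00894 replicates 1, 2 and 3, so replicate 3 of each group stood apart. Those libraries also had the steepest slopes on exonic length, and the part of length in this list was not tested. Ddit4, a stress-induced inhibitor of mTORC1, stood at 42.2, 43.7 and 44.5 TMM-scaled FPKM in vector replicates 1, 2 and 3 and 28.3, 24.3 and 28.3 in LINC00894 replicates 1, 2 and 3. It was lower in all 3 LINC00894 libraries with a log2 fold change of -0.69 (SE 0.14) and an edgeR adjusted p of 0.981, and DESeq2 called it. Rheb, which activates mTORC1, had a value of -0.36 (SE 0.17), without overlap here but with overlap under scaling by library totals, Mknk1, a kinase of eIF4E, one of 0.35 (SE 0.19), and Sesn1 one of -0.29 (SE 0.19). Of the partners of eIF2 phosphorylation, 7 of 10 were positive, with a median of 0.04. Gcn1, an activator of GCN2, had a value of -0.25 (SE 0.17), Metap2 one of 0.23 (SE 0.16), Nck1 one of 0.24 (SE 0.18) and Ppp1r15a, which brings a phosphatase to eIF2, one of -0.29 (SE 0.40). Of the elongation and release factors, 9 of 13 were positive, with a median of 0.09, and Eef1b2, Eef1d, Eef1g and Eef1a1 had values of 0.44 (SE 0.21), 0.34 (SE 0.22), 0.27 (SE 0.18) and 0.23 (SE 0.17). Eef1a2, with the next smallest p, went the other way, at -0.24 (SE 0.18). The 3 mitochondrial initiation genes Mtif3, Mtif2 and Mtfmt had values of 0.12, 0.05 and 0.06. The 9 genes left out by the selection had a median of 0.15, with 8 positive, beside 0.17 for the members.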

How the data were processed

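RNA of 6 rat brain libraries was analysed, 3 per group, grouped by the genotype label and numbered in accession order. The authors deposited one table with raw counts, exonic lengths and FPKM values per gene, per the file headers. The deposited FPKM equalled counts per length and library total to within 0.00499992, the rounding of the file. HISAT2 2.0.1 and DESeq2 are named in the submitters' processing notes. No source used here gives the genome build, counting tool or strand setting. Genes without a symbol, 388 in number, held 0.0236% of the counts.

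All genes were tested together with edgeR 4.0.16 (R 4.3.3) by its quasi-likelihood test with TMM scaling and a filter (minimum count 10, total 15), which left 15121 genes. Benjamini-Hochberg adjustment ran over all of them. SE was the log2 fold change divided by the square root of F, and 95% intervals used 9.481 degrees of freedom. Alternatives were DESeq2 1.42.0, no filter, median-of-ratios scaling, library totals alone, limma 3.58.1 on log2(FPKM + 1) and log2(FPKM + 0.1) for 15892 genes with mean FPKM of at least 0.5, Y-linked counts as covariate, libraries with Y-linked counts only, removal of length trends and leaving out each library. In simulated data for this comparison over 15121 genes, edgeR recovered 54.33% of 2-fold and 99.33% of 4-fold changes, with 8.117% false calls; DESeq2 recovered 69.0% and 100.0%, with 18.971% false calls. The changed genes were drawn above the lowest quartile of mean counts.

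The members, lists and tests were chosen with earlier results of these data known. Values in every library were given for members at an unadjusted p under 0.05 or without overlap and for the highest and lowest of each complex, and in each list up to 4 genes with the smallest p were named. Eef1a2 was named in addition, after values were seen. Library values of Eif2ak2, Eif3k, Eif4a1, Eif4ebp1, Eif4ebp2 and Ddit4, the 6 printed promoters and the motifs were chosen after values were seen. Eif3el1 and Eif1a were put in their groups after the table was seen.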

Additional observations from a re-analysis of the deposited data

How the results depend on the processing

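No paired analysis was possible because the replicates were numbered in accession order and the labels share no numbers between groups. Of 885 values under alternatives, 784 kept direction and side of the threshold or moved by less than the spread, 20 moved and 81 changed sign; the cause was not tested. Log2 fold changes that changed sign were as follows. With DESeq2, the values were Eif4g1 -0.0054, Eif4enif1 -0.00030. Without the filter, the values were Eif4g1 -0.0021. With median-of-ratios scaling, the values were Eif4g1 -0.0054, Eif4enif1 -0.00035. With library totals alone, the values were Eif2ak1 0.049, Eif4h 0.059, Eif2ak4 0.030, Eif2ak3 0.018, Eif4ebp3 0.049, Eif4e 0.027. With limma on log2(FPKM + 1), the values were Eif2ak1 0.047, Eif4h 0.053, Eif2ak4 0.034, Eif2ak3 0.015, Eif4ebp3 0.028, Eif4e 0.024. With limma on log2(FPKM + 0.1), the values were Eif2ak1 0.049, Eif4h 0.054, Eif2ak4 0.045, Eif2ak3 0.016, Eif4ebp3 0.028, Eif4e 0.025. With Y-linked counts as covariate, the values were Eif2ak1 0.00089, Eif4h 0.19, Eif4g1 -0.15, Eif4b -0.086, Eif5a2 -0.11, Eif4g2 -0.048, Eif4enif1 -0.22, Eif3c -0.25, Eif4e 0.11. In libraries with Y-linked counts, the values were Eif4h 0.18, Eif4g1 -0.16, Eif4b -0.090, Eif5a2 -0.12, Eif4g2 -0.052, Eif4enif1 -0.22, Eif3c -0.26, Eif4e 0.10. With length trend removed, the values were Eif2ak4 0.11, Eif2ak3 0.0065, Eif4g3 0.0039, Eif5a -0.019, Eif4ebp3 0.11, Eif4a3 -0.0093. When each library was left out in turn, the ranges were Eif4h -0.14 to 0.039, Eif3c -0.14 to 0.13, Eif4e -0.14 to 0.011, Eif4g1 -0.12 to 0.12, Eif2d -0.029 to 0.25, Eif2ak4 -0.22 to 0.17, Eif4ebp1 -0.17 to 0.43, Eif5a -0.051 to 0.19, Eif4g2 -0.045 to 0.15, Eif4enif1 -0.054 to 0.10, Eif4a3 -0.014 to 0.14, Eif2ak1 -0.060 to 0.0036, Eif3b -0.034 to 0.29, Eif4b -0.043 to 0.076, Eif4e2 -0.00092 to 0.33, Eif1a -0.0076 to 0.33, Eif5a2 -0.082 to 0.084, Eif4g3 -0.22 to 0.015, Eif3f -0.027 to 0.24, Eif4ebp3 -0.15 to 0.13, Eif6 -0.027 to 0.33. The members' median then ran from 0.047 to 0.23 and that of the kinases from -0.13 to -0.031. Members higher at an unadjusted edgeR p under 0.05 then numbered 1 to 3, against 0.83% to 3.13% of all genes. The count of 3 and the share of 3.13% both came from the run without LINC00894 replicate 2. With Y-linked counts as covariate and in libraries with such counts, the value of eIF2 gamma was 0.17 and 0.16. The median of the kinases was -0.13 and -0.13, and that of the binding proteins -0.32 and -0.33. With the covariate, 2 members were higher at an unadjusted edgeR p under 0.05, against 2.80% of all genes. There 1 member was lower at that p, against 6.25% of all genes. Members higher at that p numbered 2 with library totals and 3 with either pseudocount, against 2.84%, 3.21% and 3.17% of all genes, and the kinase median was 0.045 with the pseudocount of 0.1. DESeq2 called 1 gene of the mTORC1 list, Ddit4, against 0 by edgeR. At this depth and with 3 libraries per group, edgeR recovered 54.33% of simulated 2-fold changes, so smaller changes may pass undetected.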
